A study of Mus musculus with 50 samples.

Results

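Between the 8 h and 24 h time points, untreated mouse oligodendrocyte-lineage cells raised the transcripts of myelin proteins and of late oligodendrocytes. They lowered those of precursors, of growth factor feedback and of the cell cycle. The libraries were chosen by label: the 5 untreated libraries of 24 h were compared with the 5 untreated libraries of 8 h, 10 of the 50 libraries of the series. Each hour has 2 wild-type and 3 Nrf2 -/- libraries, and genotype was a covariate. Nrf2 -/- cells are homozygous null for NRF2 (gene Nfe2l2), which switches on antioxidant genes, and the labels name no further allele or agent for either genotype. Precursors on a C57BL/6 background had been immunopanned from the cortices of 6-day-old pups, grown through 2 passages and left to differentiate for 12 to 14 h before plates were assigned. The labels give the hours as treatment time points for untreated plates too. A tissue tag reads whole brain, although the protocol names cortex. Levels in the comparisons below with other libraries were scaled over more libraries and differ slightly. Untreated libraries of 1 h and 48 h, and libraries of 8 h and 24 h with 200 U/ml interferon-γ (IFN-γ, an inflammatory cytokine), are used below where the change from 8 h to 24 h is compared with another.

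Oligodendrocytes wrap axons in myelin, a compacted membrane rich in cholesterol and galactolipids and held together by a small set of abundant proteins such as myelin basic protein. Their precursors divide in response to platelet-derived growth factor and carry its receptor PDGFRA and the NG2 proteoglycan. Once they leave the cycle they pass through a committed stage marked by GPR17 and ENPP6 and then switch on the myelin genes, a step driven by transcription factors that include OLIG2, SOX10, NKX2-2 and MYRF.

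Each library held 34385467 to 38344712 counts, and 14662 genes passed the filter on low counts. The first principal component carried 55.03% of the variance and separated the hours without overlap. Summed levels of the 12 defining markers of the oligodendrocyte lineage were 11182 to 12264 CPM (counts scaled to library size and the TMM factor) at 8 h and 21055 to 24540 CPM at 24 h. Nfe2l2 checks the genotype labels: it stood at 5.02 and 9.97 CPM in wild-type cells at 8 h, at 27.7 and 27.6 CPM in wild-type cells at 24 h, and at 0.175 to 0.65 CPM in 5 Nrf2 -/- libraries, but at 7.47 CPM in the library labelled Nrf2 -/- 8 h replicate 3, which goes against its label. In Nrf2 -/- 8 h replicate 2 a tag names the wild type and the title the mutant, and Nfe2l2 was at 0.175 CPM; the titles were followed. Sex went partly with genotype. Xist, expressed in female cells, was at 354 to 509 CPM in Nrf2 -/- replicates 1 and 2 of both hours. It was at 0.115 to 4.32 CPM in all other libraries. Ddx3y, of the Y chromosome, was at 0.104 to 2.15 CPM in the former and 102 to 152 CPM in the latter. With the Xist level as a further covariate 7187 genes were called between the hours. A pair of further libraries stood apart at 24 h. In Nrf2 -/- replicate 2 interferon-stimulated genes summed to 287.8 CPM against 211 to 228 CPM in the other 24 h libraries, and in wild-type replicate 2 the 100 most abundant genes took 28.6% of the counts against 21.2% to 25.4%. The labels do not say that libraries come from separate cultures, so p-values measure only how these libraries scatter, and part of that may be technical.

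The change was broad. By edgeR's quasi-likelihood test with Benjamini-Hochberg adjustment over all tested genes, 7430 of 14662 genes (50.7%) differed between the hours at an adjusted p below 0.05. Of these, 3700 were higher at 24 h (25.2%) and 3730 lower (25.4%), and the median log2 fold of all tested genes was −0.02. Counts of listed genes that rose or fell, given below, are to be read beside these shares. Most changes were small: the median size among called genes was 0.43 on the log2 scale, and 599 genes (4.09%) rose and 532 (3.63%) fell by at least 2-fold. When library totals alone were used for scaling, the median moved from −0.02 to −0.19, and of 8128 called genes 1996 were higher and 6132 lower (24.6% higher, against 49.8% with TMM), so rises and falls are stated relative to the TMM scale.

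Among genes of at least 5 CPM whose libraries did not overlap between the hours, the largest rises included genes outside the myelin lists. Ddc, aromatic amino acid decarboxylase (ENSMUSG00000020182.16, chromosome 11, 11814101 to 11898144, minus strand in GENCODE M21 on GRCm38), was at 9.76, 10.04, 9.34, 7.34 and 7.34 CPM at 8 h and at 128, 120.2, 112, 141 and 126 CPM at 24 h; here and below the values stand in the order wild-type replicates 1 and 2, then Nrf2 -/- replicates 1 to 3. Every 24 h library lay above every 8 h library, and the fitted log2 fold was 3.85 ± 0.10 SE (adjusted p = 2.48e-11). Among the other 7 of the 8 largest were the tetraspanin Tspan4 (3.81 ± 0.09; from 5.05 to 71.4 CPM), Elmod1, a GTPase-activating protein for Arf family proteins (3.65 ± 0.10; from 1.74 to 21.9 CPM), and the lysophosphatidic acid receptor Lpar1 (3.58 ± 0.09; from 7.02 to 84.3 CPM). Plekhg1, a guanine nucleotide exchange factor of small GTPases (3.55 ± 0.13; from 2.63 to 31.1 CPM), Arhgap28, a GTPase-activating protein (3.37 ± 0.19; from 0.742 to 7.71 CPM), and Mobp, described with the myelin proteins, were also among them. The adjusted p-values of the 7 genes named were at or below 1.76e-06.

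The 8 largest falls were led by Pnlip, which encodes pancreatic lipase (−2.89 ± 0.28, from 13.8 to 1.9 CPM). Next came Dll3, of the Notch ligand family (−2.86 ± 0.15). Dll3 was at 54.7, 62.5, 48, 67 and 61.3 CPM at 8 h and 6.29, 6.23, 10.7, 7.94 and 9.71 CPM at 24 h, so that all 5 later libraries were below the lowest earlier library. Ptgfrn, a membrane protein that binds tetraspanins (−2.38 ± 0.19; from 37.8 to 7.35 CPM), the potassium channel interacting protein Kcnip1 (−2.27 ± 0.19; from 5.16 to 1.07 CPM) and the prohormone convertase Pcsk2 (−2.12 ± 0.10; from 15.6 to 3.59 CPM) followed. The other 3 were the precursor genes C1ql1, Pcdh15 and Cspg4. The adjusted p-values of these 8 were between 3.51e-11 and 2.13e-05.

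**Figure D1:**
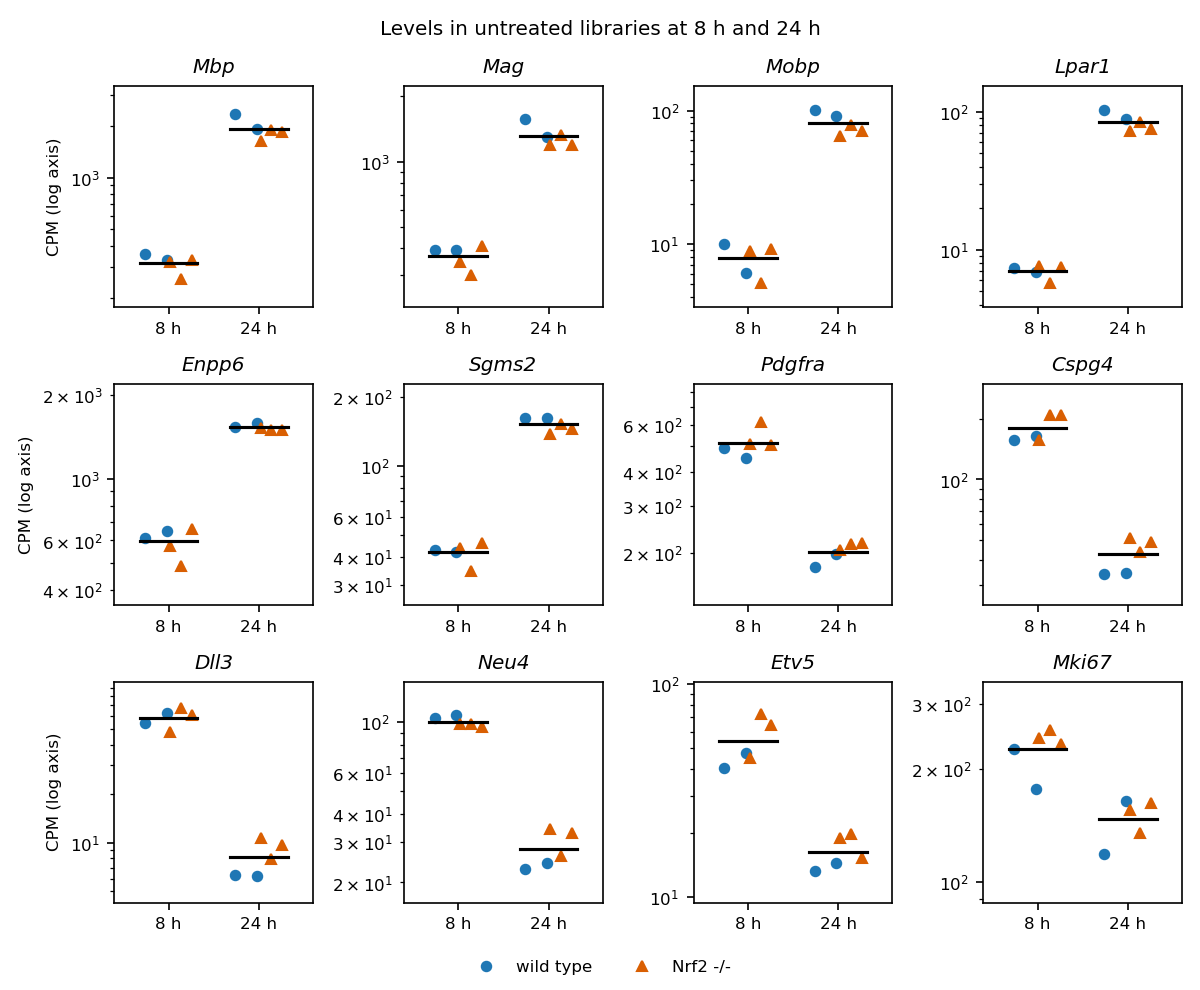
Levels of 12 genes in each of the 10 untreated libraries (log axis, CPM after TMM scaling), by hour, with wild-type libraries as circles, Nrf2 -/- libraries as triangles and the mean of each hour as a bar. Mbp, Mag, Mobp, Lpar1, Enpp6 and Sgms2 sit higher in all 5 libraries of 24 h than in any library of 8 h, and Pdgfra, Cspg4, Dll3, Neu4, Etv5 and Mki67 sit lower in all 5.

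Genes of the myelin sheath rose as a group. Of 20 genes listed as structural myelin proteins, 16 rose and 1 fell, against 25.2% and 25.4% of all tested genes, and the 16 that rose had no overlap between the hours, where 19.8% of all genes rose without overlap (37.7% in either direction). The median log2 fold was 1.32, and 13 rose by at least 2-fold. Mbp, which encodes myelin basic protein of the compacted cytoplasmic faces, was at 358, 333, 322, 256 and 331 CPM at 8 h and 2344, 1911, 1634, 1889.5 and 1841 CPM at 24 h. The lowest 24 h library was above the highest 8 h library, and the log2 fold was 2.59 ± 0.08 (adjusted p = 8.19e-11). Mag, the periaxonal adhesion molecule (ENSMUSG00000036634.15, chromosome 7, 30899176 to 30914873, minus strand), was at 393, 392, 345, 303 and 410.2 CPM and then at 1580.2, 1299.6, 1195, 1322 and 1195 CPM (1.84 ± 0.08, adjusted p = 1.35e-09). The hours again did not overlap.

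Mobp, myelin-associated oligodendrocytic basic protein, was at 9.97, 6.05, 8.9, 5.08 and 9.14 CPM and then at 101, 91.3, 64.1, 77.3 and 69.8 CPM (3.35 ± 0.20, adjusted p = 1.76e-06), with the wild-type libraries of 24 h above the Nrf2 -/- libraries. Mog, on the outermost lamella, rose from 20.6 to 55.9 CPM (1.44 ± 0.08). Opalin, a transmembrane protein of oligodendrocyte paranodes, rose from 11.9 to 43.2 CPM (1.86 ± 0.06) and Cnp, the cyclic nucleotide phosphodiesterase of noncompact myelin, from 2166 to 3943 CPM (0.87 ± 0.05). Hapln2, a link protein of nodal matrix, rose from 0.842 to 8.35 CPM (3.31 ± 0.16). The exception in direction was Omg, oligodendrocyte myelin glycoprotein, which fell slightly (−0.17 ± 0.05; from 147 to 130.2 CPM), and 3 members did not pass the test: connexin 32 (Gjb1), at 2.03 to 2.45 CPM and 1.84 to 2.45 CPM, the tetraspanin Cd9, at 66.7 to 259 CPM and 75.3 to 240.3 CPM, and plasmolipin (Pllp), at 62.4 to 78.2 CPM and 71.2 to 85.3 CPM. Per kilobase of exon, mean levels at 8 h and 24 h were 595 and 1084 CPM for Cnp and 90.5 and 324 CPM for Mag. They were 37.8 and 227 CPM for Mbp, 12.1 and 32.8 CPM for Mog and 1.14 and 11.8 CPM for Mobp. The length used, here and below, joins all annotated exons of a gene (8469 bases for Mbp, 4072 for Mag). It can exceed that of the transcripts expressed, so an order of genes on this scale is rough. In CPM alone Mbp (1924) was above Mag (1318) at 24 h.

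Genes listed for later oligodendrocytes showed the same direction: 16 of 21 rose and 2 fell, with a median log2 fold of 0.97 and 10 rises of at least 2-fold. Lpar1, already named, was at 7.33, 6.87, 7.67, 5.76 and 7.49 CPM at 8 h and 102, 88.2, 71.9, 84.4 and 75.1 CPM at 24 h. Tppp, a tubulin-polymerizing protein of oligodendrocytes, rose from 40.9 to 369.9 CPM (3.17 ± 0.10), and Adamts4, a proteoglycan-cleaving metalloproteinase, from 32.2 to 208 CPM (2.68 ± 0.09). Prr5l, a partner of the mTORC2 kinase complex, rose from 0.407 to 3.78 CPM (3.22 ± 0.25). Ugt8a, which makes galactosylceramide, the main glycolipid of myelin, rose from 1374 to 3526 CPM (1.36 ± 0.05), and the orphan receptor gene Gpr37 from 12.7 to 66.6 CPM (2.39 ± 0.09). Bcas1, the highest of the list per kilobase and a marker of early myelinating cells, was at 3458 to 4093 CPM at 8 h and 3948 to 4051 CPM at 24 h and did not pass the test. The members that fell were Ninj2, an adhesion molecule (−1.02 ± 0.15; from 5.64 to 2.77 CPM), and gelsolin, Gsn, an actin-severing protein (−0.12 ± 0.05, adjusted p = 0.0424; 115 to 124 CPM and 101 to 117 CPM). The call of Gsn was lost without any 1 of 6 libraries (both wild-type and Nrf2 -/- replicate 2 of 8 h, wild-type replicate 2 and Nrf2 -/- replicates 1 and 2 of 24 h), with adjusted p-values of 0.0877 to 0.113. Aspa, Klk6, Ppp1r14a and Cryab were too low to be tested.

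Transcription factors of the lineage did not move as a block: 4 of 20 rose and 9 fell (median −0.31), beside 25.2% and 25.4% of all tested genes. St18, a zinc finger protein of the MYT family, rose most (1.71 ± 0.07), from 21.4, 22.6, 19.1, 18 and 23.8 CPM to 69.4, 71.7, 69.6, 66 and 66.3 CPM, with no overlap between the hours. Zfp536, another zinc finger gene, rose from 11 to 22.5 CPM (1.03 ± 0.12), and Sox10, required throughout the lineage, from 702 to 856 CPM (0.29 ± 0.05, a call lost without the TMM scaling factor). The bHLH genes Olig1 and Olig2 fell. Olig1 was at 647, 597, 616, 680.5 and 564 CPM and then at 331, 304, 347, 330.3 and 356 CPM (−0.90 ± 0.06, adjusted p = 7.7e-09), and Olig2 went from 496 to 348 CPM (−0.51 ± 0.05). The precursor-stage factors Sox5 (−1.53 ± 0.11; from 12.3 to 4.28 CPM) and Sox6 (−0.71 ± 0.09; from 623 to 380.4 CPM) fell too, as did Nkx2-2 (−0.77 ± 0.21; from 49.1 to 28.8 CPM), whose libraries overlapped between the hours. Myrf, the activator of myelin genes, was at 219, 234, 204, 243 and 423 CPM at 8 h and 315, 363, 442, 333 and 286 CPM at 24 h, and Nrf2 -/- 8 h replicate 3 was above every other 8 h library. Its log2 fold of 0.40 ± 0.22 did not pass (adjusted p = 0.17), and without that library it was 0.62 (adjusted p = 0.00467). Tcf7l2, a Wnt effector of newly formed oligodendrocytes, was at 46.7 to 116 CPM and 70.03 to 123 CPM and had a log2 fold of 0.49 ± 0.29 (adjusted p = 0.209) and of 0.79 without that library (adjusted p = 0.0111). Without it 7 of the listed factors rose.

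Precursor genes fell. Of 18 tested members 14 fell, 9 of them by at least 2-fold, and 2 rose, with a median log2 fold of −1.05. Pdgfra, the receptor through which precursors are driven to divide (ENSMUSG00000029231.15, chromosome 5, 75152292 to 75198215, plus strand), was at 493, 453, 509.5, 618 and 506 CPM at 8 h and 177, 198, 205, 215 and 218 CPM at 24 h (−1.35 ± 0.06, adjusted p = 2.83e-10). Cspg4, the NG2 proteoglycan, was at 157, 164, 156, 209 and 209 CPM and then at 34.1, 34.7, 51.3, 44 and 49 CPM (−2.08 ± 0.09, adjusted p = 2.2e-09). Neither gene overlapped between the hours. C1ql1, a secreted complement-related protein (−2.17 ± 0.13; from 17.5 to 3.89 CPM), Pcdh15, a protocadherin (−2.13 ± 0.07; from 201 to 46.1 CPM), Megf11, an EGF-repeat membrane protein (−1.97 ± 0.12; from 45.5 to 11.7 CPM), and Ptprz1, a receptor tyrosine phosphatase (−1.14 ± 0.15; from 769 to 349 CPM), fell as well. The 2 that rose were brevican (Bcan), a matrix proteoglycan (0.17 ± 0.05; from 636 to 716 CPM), and the semaphorin Sema5a (0.94 ± 0.11; from 221 to 423 CPM). Lhfpl3, the highest of the list per kilobase, was at 855 to 984 CPM at 8 h and 891 to 951 CPM at 24 h and did not pass.

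The list of committed precursors and newly formed oligodendrocytes divided: 13 of 19 rose (7 by at least 2-fold), 3 fell, and the median was 0.65. Enpp6, a choline phosphodiesterase of newly formed cells, was at 612, 647, 571, 485 and 661 CPM and then at 1538, 1588, 1523, 1499 and 1494 CPM (1.36 ± 0.07, adjusted p = 8.17e-10). Tmem163, a zinc transporter, rose from 51.9 to 279 CPM (2.42 ± 0.07), and the small GTPase gene Rras2 from 31.3 to 108 CPM (1.79 ± 0.07). Casr, the calcium-sensing receptor, rose from a level near the limit of detection, 0 to 0.0772 CPM, to 0.528 to 0.919 CPM. Of the 3 that fell, Neu4, a sialidase, was at 105, 107, 98.3, 98.7 and 95.1 CPM and then at 22.9, 24.4, 34.4, 26 and 33.1 CPM (−1.85 ± 0.11, adjusted p = 9.41e-08). Gpr17, the receptor that defines committed precursors, went from 2102 to 1438 CPM (−0.55 ± 0.05) and Bmp4, a secreted growth factor, from 53.4 to 41.9 CPM (−0.35 ± 0.09); the libraries of Bmp4 overlapped between the hours.

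Of 19 inhibitors of differentiation 7 were higher and 8 lower (median 0.08; 4 and 8 with library totals alone), beside 25.2% and 25.4% of all tested genes. Within the Notch pathway, which holds precursors back, the ligand Dll1 (−0.45 ± 0.05) and the receptor Notch1 (−0.39 ± 0.09) fell, while the ligand Jag1 rose (0.68 ± 0.10). Dll3, of the same ligand family, fell too. The activity of the pathway was not tested. Lingo1, a membrane inhibitor of myelination, fell from 9.42 to 4.32 CPM (−1.13 ± 0.10). The ID proteins, which sequester bHLH factors, went the other way: Id1 rose from 1.7 to 5.71 CPM (1.76 ± 0.17) and Id4 from 1.4 to 3.89 CPM (1.46 ± 0.15). Sox4, the highest of the list per kilobase, rose slightly (0.19 ± 0.04; from 661 to 756 CPM), a call lost without the TMM scaling factor. Of 19 genes in the feedback loop of growth factor and ERK signalling 15 fell, 6 by at least 2-fold, and 1 rose, with a median of −0.89. Etv5, an ETS factor induced by ERK, was at 40.4, 47.7, 45.3, 72.7 and 64.1 CPM and then at 13.3, 14.5, 19, 19.9 and 15.3 CPM, without overlap (−1.72 ± 0.13, adjusted p = 2.07e-06). Etv4 (−1.75 ± 0.11), the Sprouty inhibitor Spry4 (−1.65 ± 0.20), the ERK phosphatase Dusp4 (−1.63 ± 0.22) and cyclin D1, Ccnd1 (−0.97 ± 0.07; from 129 to 66.1 CPM), fell as well. The member that rose was the ephrin receptor Epha4 (1.16 ± 0.05; from 94.2 to 210.1 CPM).

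Every measured cell cycle gene had a negative log2 fold, and 24 of 26 passed the test, none by 2-fold (median −0.60, lowest −0.93); 19 had no overlap between the hours, where 18% of all genes fell without overlap. Mki67, a marker of cycling cells, was at 226, 177, 243, 255 and 233 CPM at 8 h and 118, 164, 156, 135 and 162 CPM at 24 h (−0.62 ± 0.10, adjusted p = 0.000534). Genes of the replicative helicase, which unwinds DNA for replication, fell: Mcm2 was at 54.1, 50.8, 52.8, 54.8 and 43.8 CPM and then at 25.8, 22.7, 28.2, 27.3 and 30.9 CPM (−0.93 ± 0.08), Mcm3 had a log2 fold of −0.80 ± 0.09, Mcm5 of −0.78 ± 0.07 and Mcm6 of −0.69 ± 0.06. The falls of Mcm7 (−0.49) and Mcm4 (−0.37) were smaller than the list's median. The cyclin of S phase entry, Ccne1 (−0.78 ± 0.09), and the mitotic cyclins Ccnb1 (−0.59 ± 0.09) and Ccnb2 (−0.76 ± 0.10) fell by a similar size. So did the kinase of the mitotic cyclins, Cdk1 (−0.65 ± 0.09), and topoisomerase Top2a (−0.58 ± 0.07, from 328 to 219.7 CPM). The 2 that did not pass were Pcna, the polymerase clamp, at 116 to 144 CPM and 116 to 138 CPM, and E2f1, at 2.42 to 4.07 CPM and 1.88 to 3.2 CPM. Fewer cycling cells and less RNA of these genes per cell cannot be told apart in bulk samples, here or in the other groups. Among the 7 inhibitors of cyclin-dependent kinases, Cdkn1c (−0.33 ± 0.07; from 26.8 to 21.3 CPM), Cdkn2c (−0.37 ± 0.09; from 26.6 to 20.5 CPM) and Cdkn2a (−0.41 ± 0.12; from 8.79 to 6.61 CPM) fell. Cdkn1a, encoding p21, was higher at 24 h (13.7 to 17.7 CPM and 16.2 to 20.3 CPM), a call lost without Nrf2 -/- 8 h replicate 2, wild-type 8 h replicate 2, wild-type 24 h replicate 1 or Nrf2 -/- 24 h replicate 3. Cdkn1b, which encodes p27, was at 73.9 to 87.9 CPM and 82 to 87.9 CPM and did not pass.

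The promoters of 4 of these genes are shown as examples, picked because they hold letters of cell cycle motifs; each line gives the 250 bases before the gene's start from RefSeq on GRCm38.p6, 5′ to 3′ on the gene's strand, with motif matches in capitals.
Cdk1: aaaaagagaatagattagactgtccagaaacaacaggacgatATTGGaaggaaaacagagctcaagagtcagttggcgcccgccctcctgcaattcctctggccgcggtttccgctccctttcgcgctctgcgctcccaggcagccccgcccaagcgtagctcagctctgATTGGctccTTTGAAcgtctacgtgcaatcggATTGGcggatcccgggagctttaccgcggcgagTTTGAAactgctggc
Ccnb2: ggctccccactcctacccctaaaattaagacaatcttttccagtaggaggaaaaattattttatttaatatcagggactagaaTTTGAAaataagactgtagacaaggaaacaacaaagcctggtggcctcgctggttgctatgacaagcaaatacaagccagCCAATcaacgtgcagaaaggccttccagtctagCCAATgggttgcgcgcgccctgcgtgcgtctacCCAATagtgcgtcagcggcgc
Mcm6: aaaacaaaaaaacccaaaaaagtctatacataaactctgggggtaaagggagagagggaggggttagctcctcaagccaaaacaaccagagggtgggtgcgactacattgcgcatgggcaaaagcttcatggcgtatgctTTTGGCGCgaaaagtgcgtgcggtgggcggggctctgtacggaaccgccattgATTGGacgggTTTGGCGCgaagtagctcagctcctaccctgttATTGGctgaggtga
Mcm5: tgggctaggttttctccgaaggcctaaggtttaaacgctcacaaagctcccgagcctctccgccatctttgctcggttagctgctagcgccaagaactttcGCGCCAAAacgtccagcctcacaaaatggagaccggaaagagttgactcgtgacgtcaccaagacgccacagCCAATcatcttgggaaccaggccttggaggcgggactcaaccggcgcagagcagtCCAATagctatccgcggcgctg
They lie at chr10:69352913-69353162, minus strand (Cdk1), chr9:70421555-70421804, minus strand (Ccnb2), chr1:128359706-128359955, minus strand (Mcm6) and chr8:75109259-75109508, plus strand (Mcm5). Both strands were searched. The cell cycle homology region (CHR) was taken as TTTGAA, or alternatively TTCGAA. The letters taken for an E2F site were TTTCCCGC, or alternatively TTTGGCGC. The CCAAT box was taken as CCAAT, which reads ATTGG from the opposite strand. Of the 4 shown, Cdk1 and Ccnb2 hold the CHR letters and 3 CCAAT boxes each, and Mcm6 and Mcm5 hold E2F letters and 2 CCAAT boxes each. The letters did not divide the list by phase: the CHR letters are also in Mcm2 and Mcm7 and are not in the windows of the mitotic genes Ccnb1, Plk1, Aurka and Bub1. The RefSeq table had promoters for 22 of the 26 listed genes. CCAAT was present in 17 of the 22 (77.3%) and in 37.5% of all 27025 genes in the table, the CHR letters in 7 (31.8%, against 19.6%) and the E2F letters in 3 (13.6%, against 1.51%). These letters describe the windows and show no binding.

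Genes of myelin lipid synthesis rose by small steps. In sterol synthesis 15 of 24 rose and none fell (median 0.19), but with library totals alone 8 rose and 2 fell, and without Nrf2 -/- 24 h replicate 3 there was 1 fall. Hmgcs1, the entry enzyme of the mevalonate pathway and the highest of the list per kilobase, was at 6414, 6431, 6081, 5706 and 5621 CPM and then at 8063, 8142, 8234, 7789.8 and 8529 CPM, with no overlap (0.43 ± 0.05, adjusted p = 7.37e-06). The sterol isomerase Ebp rose from 47 to 68.8 CPM (0.55 ± 0.05). Squalene epoxidase, Sqle, rose less (0.21 ± 0.04), and its call was lost without the scaling factor. In the list for sterol efflux and transport 4 of 9 rose and 1 fell. The cholesterol exporter Abca1 rose from 0.783 to 2.18 CPM (1.48 ± 0.27), and the lysosomal cholesterol carriers Npc1 (0.75 ± 0.05; from 163 to 274 CPM) and Npc2 (0.40 ± 0.05; from 189 to 248 CPM) rose with it. In fatty acid synthesis 16 of 19 rose and none fell (median 0.26; 8 with library totals alone). Malic enzyme Me1, a source of NADPH, rose most, from 49.9 to 127 CPM (1.35 ± 0.05). Fatty acid synthase Fasn (0.46 ± 0.08; from 1965 to 2705 CPM), the elongation genes Elovl1 (0.61 ± 0.05) and Tecr (0.54 ± 0.05) rose by less, and the desaturase Scd2 rose with overlap between the hours (0.68 ± 0.20; 2436 to 4662 CPM and 4044 to 6557 CPM). Without wild-type 8 h replicate 1 the log2 fold of Scd2 was 0.62 (adjusted p = 0.0558).

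Sphingolipid and galactolipid genes had a larger median, 0.50: 15 of 19 rose and 3 fell. Sgms2, a sphingomyelin synthase, was at 42.8, 42.2, 43.8, 34.6 and 45.8 CPM and then at 162, 163, 138, 153 and 145 CPM (1.86 ± 0.07, adjusted p = 5.16e-11), without overlap. The ceramide desaturase Degs1 rose from 63.2 to 125 CPM (0.98 ± 0.04), the glycolipid transfer protein Gltp from 139 to 241 CPM (0.79 ± 0.05) and prosaposin, Psap, the highest of the list per kilobase, from 383 to 602 CPM (0.65 ± 0.04). Gal3st1, which sulfates galactosylceramide to sulfatide, rose less (0.43 ± 0.05; from 122 to 163 CPM). Fa2h, which hydroxylates the fatty acids of these lipids, rose with overlap between the hours (0.55 ± 0.14; from 42.1 to 61.5 CPM). The ganglioside enzyme B4galnt1 fell (−0.55 ± 0.11; from 8.1 to 5.54 CPM). The other 2 that fell depended on single libraries. St3gal5, a ganglioside sialyltransferase, was at 13.4 to 16.4 CPM and 11.3 to 13.7 CPM (−0.22 ± 0.08), a call lost without wild-type 8 h replicate 1, Nrf2 -/- 8 h replicate 2, Nrf2 -/- 24 h replicate 2 or wild-type 24 h replicate 2 (adjusted p = 0.0656 to 0.0877). Cers6, a ceramide synthase, was at 13.1 to 26.5 CPM and 8.47 to 14.6 CPM (−0.78 ± 0.24), a call lost without wild-type 8 h replicate 2, wild-type 24 h replicate 1 or Nrf2 -/- 24 h replicate 3 (adjusted p = 0.0556 to 0.0603).

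**Figure D2:**
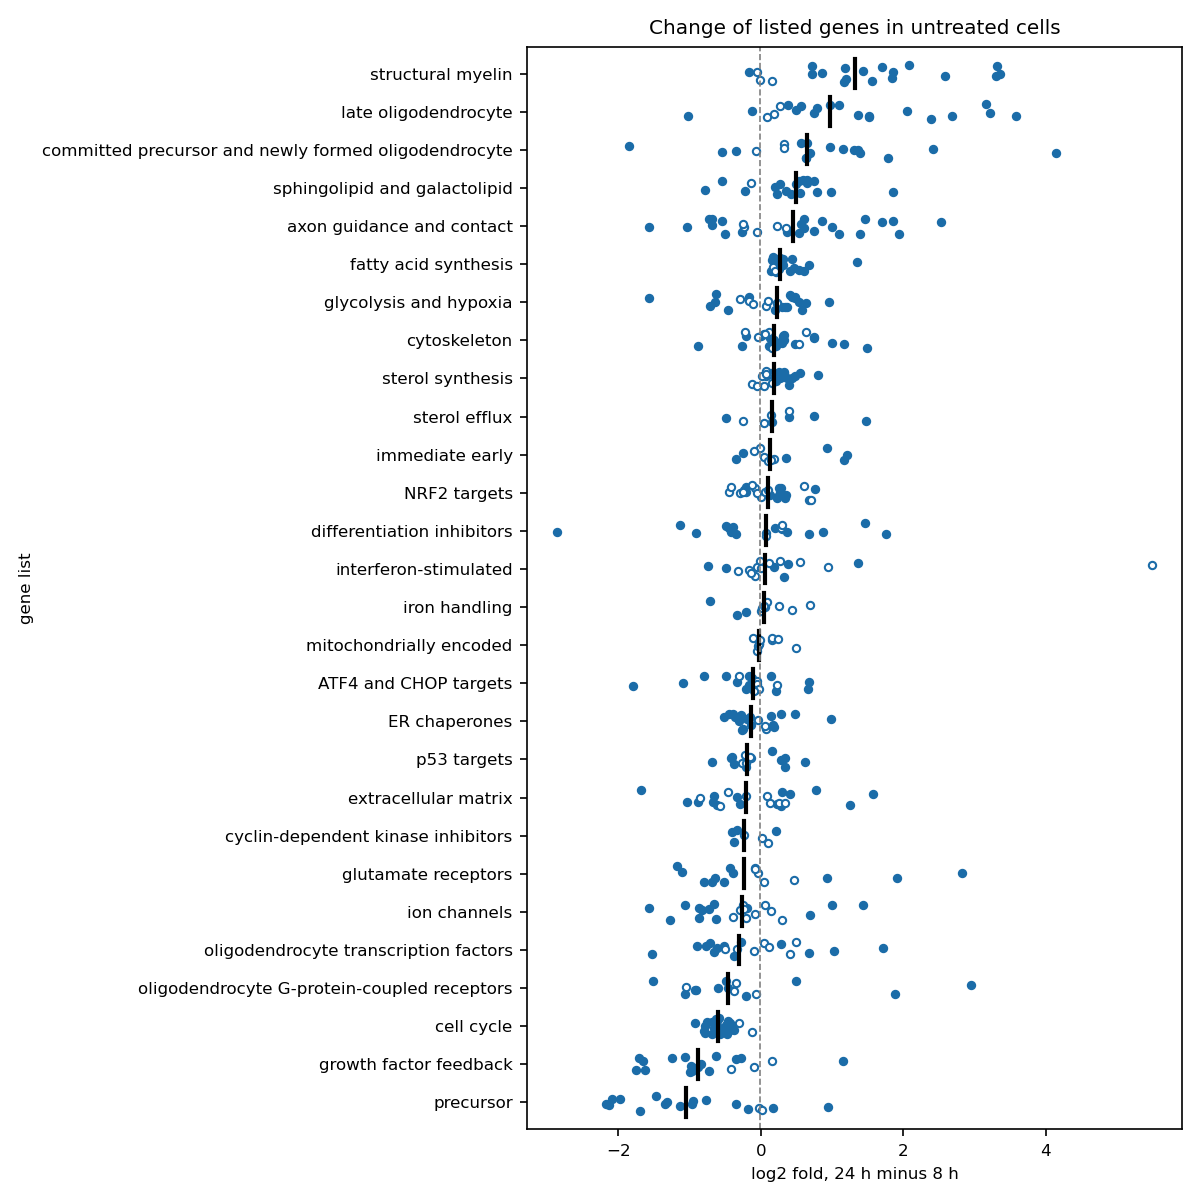
Fitted log2 fold, 24 h minus 8 h, of each tested member of the 28 gene lists; filled points passed the test at an adjusted p below 0.05, open points did not, and the black bar is the list's median. The dashed line is the median of all 14662 tested genes. The structural myelin, late oligodendrocyte and sphingolipid lists lie mostly to the right, with medians of 1.32, 0.97 and 0.50, and the precursor, growth factor feedback and cell cycle lists to the left, with medians of −1.05, −0.89 and −0.60.

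Among receptors and channels more genes fell than rose, where 25.4% of all tested genes fell and 25.2% rose. Of 16 genes of glutamate receptors and their auxiliary subunits 8 fell and 3 rose (median −0.24). The metabotropic receptor Grm7 rose steeply, from 30.4, 28.2, 29.5, 26.7 and 44.1 CPM to 238, 239, 224, 215 and 208 CPM, with no overlap (2.82 ± 0.14, adjusted p = 2.47e-07), while Grm5 (−1.18 ± 0.08; from 60.6 to 26.7 CPM) and the NMDA receptor subunit Grin3a (−1.11 ± 0.10; from 13.7 to 6.35 CPM) fell. Of 22 ion channel genes 10 fell and 3 rose (5 rose without Nrf2 -/- 8 h replicate 3). The calcium channel Cacna1d (−1.57 ± 0.12; from 10.7 to 3.67 CPM) and the potassium channel Kcnk1 (−1.06 ± 0.12; from 3.95 to 1.89 CPM) fell, and Kcna4 rose (1.44 ± 0.17; from 1.06 to 2.88 CPM). Of 15 G-protein-coupled receptors 8 fell and 3 rose. The sphingosine phosphate receptor of mature cells, S1pr5, rose from 0.381 to 2.97 CPM (2.95 ± 0.27), the purine receptor P2ry12 rose from 1.41 to 5.15 CPM (1.88 ± 0.14), and the muscarinic receptor Chrm1, which holds back differentiation, fell from 3.06 to 1.08 CPM (−1.51 ± 0.19).

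Genes of cell shape rose more often than they fell, where 25.2% of all tested genes rose and 25.4% fell. Of 29 cytoskeleton genes 17 rose and 3 fell (median 0.19), and with library totals alone 8 rose and 4 fell. The microtubule-associated proteins Map1b (1.49 ± 0.19; from 451 to 1266 CPM) and Map1a (1.01 ± 0.14; from 269 to 539 CPM) and the Arp2/3 subunit Arpc1b (1.17 ± 0.05; from 202 to 456 CPM) rose most, and the tubulin Tubb6 fell (−0.89 ± 0.16; from 4.31 to 2.34 CPM). Actb, beta-actin, rose from 6322 to 7809 CPM (0.31 ± 0.05), a call lost without the scaling factor. Of 28 genes of axon guidance and contact 15 rose and 8 fell (median 0.46). The secreted semaphorin Sema3e rose from 2.65 to 15.3 CPM (2.53 ± 0.11), the transmembrane Sema6a from 139 to 449 CPM (1.70 ± 0.25), the netrin receptor Unc5b from 9.02 to 34.7 CPM (1.95 ± 0.08) and the ephrin Efnb3 from 5.65 to 20.4 CPM (1.85 ± 0.11). Contactin 1, Cntn1, fell from 1368 to 941 CPM (−0.54 ± 0.04). Of 23 matrix genes 7 rose and 8 fell (4 and 10 with library totals alone), beside 25.2% and 25.4% of all tested genes, and nothing is read from these shares. The collagen Col20a1 rose from 329.6 to 789.9 CPM (1.26 ± 0.06), Col9a1 fell from 197 to 95.6 CPM (−1.04 ± 0.05) and Col11a1 fell from 1825 to 1446 CPM (−0.34 ± 0.05).

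The counts of the stress, metabolic and immediate early lists are to be read beside the 25.2% of all tested genes that rose and the 25.4% that fell, and a share near these is not a result about the list. Of 20 chaperones and folding factors of the endoplasmic reticulum (ER) 11 fell and 6 rose (median −0.14; 12 and 2 with library totals alone); Edem1, of ER-associated degradation, rose from 64 to 127 CPM (0.99 ± 0.06), and Creld2 (−0.51 ± 0.05) and Xbp1, the transcription factor of the unfolded protein response (−0.44 ± 0.05), fell. Of 20 targets of ATF4 and CHOP, factors of the integrated stress response, 9 fell and 4 rose (13 and 2 with library totals alone). The amino acid transporter Slc7a5 fell from 25.5 to 12 CPM (−1.10 ± 0.07), the hormone Stc2 from 2.63 to 0.759 CPM (−1.80 ± 0.22) and Phgdh, of serine synthesis, from 36 to 20.6 CPM (−0.80 ± 0.11). Of 25 NRF2 targets 10 rose and 3 fell (median 0.11), a balance that turned to 3 up and 10 down with library totals alone. Taldo1, of the pentose phosphate pathway (0.76 ± 0.06; from 375 to 633 CPM), and peroxiredoxin 1, Prdx1 (0.68 ± 0.07; from 279 to 446 CPM), rose most. Of 25 glycolysis and hypoxia genes 13 rose and 6 fell, against 8 up and 9 down with library totals alone. Lactate dehydrogenase B, Ldhb, fell from 70.5, 63.5, 66.1, 66.2 and 48.5 CPM to 19.6, 18.3, 21.8, 21.7 and 24.9 CPM, without overlap (−1.57 ± 0.11, adjusted p = 5.3e-07). Of the p53 targets 5 rose and 6 fell of 16 (2 and 8 with library totals alone), of the immediate early genes 4 and 2 of 12, and of the iron genes 0 and 3 of 11 (1 lower without Nrf2 -/- 8 h replicate 2, without Nrf2 -/- 24 h replicate 2 or without Nrf2 -/- 24 h replicate 3). None of the 11 mitochondrially encoded genes passed, and 1 rose without Nrf2 -/- 8 h replicate 1 or without Nrf2 -/- 8 h replicate 3.

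The summed level of interferon-stimulated genes at 24 h was near that of 8 h in most libraries. Of 18 tested genes 4 were higher and 2 lower at 24 h, beside 25.2% and 25.4% of all tested genes, and nothing is read from these shares. With library totals alone 2 were higher and 5 lower, and without wild-type 8 h replicate 1 there was 1 lower. Gbp3, a guanylate-binding GTPase, was at 6.21, 5.15, 6.05, 5.58 and 6.41 CPM and then at 14.7, 13.3, 12.9, 21.1 and 13.6 CPM, without overlap (1.36 ± 0.13, adjusted p = 1.21e-06), and Ifit2 fell from 5.74 to 3.44 CPM (−0.74 ± 0.11). Gbp2 was at 0.0507, 0.0726, 0.0261, 0.651 and 0 CPM at 8 h and at 0, 0, 0.156, 39.6 and 0.115 CPM at 24 h: the level of 39.6 CPM is that of Nrf2 -/- replicate 2 alone, and the gene did not pass the test. That library was also the highest of 24 h for Psmb8, at 2.85 CPM against 0.033 to 0.144 CPM in the other 4.

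Markers of other cell types were low. Of the 12 microglia and macrophage markers 9 stayed below 0.1 CPM in every library, among them Cx3cr1, Csf1r and Tyrobp, and the summed level was 17.8 to 22 CPM at 8 h and 21.4 to 24.4 CPM at 24 h. Of the 12 endothelial, mural and fibroblast markers 7 stayed below 0.1 CPM, with sums of 1.36 to 1.83 and 2.33 to 3.51 CPM. Neuron markers summed to 27.7 to 35.8 and 24.5 to 31.5 CPM, and Slc17a6 and Slc17a7 were below 0.1 CPM. Astrocyte markers summed to 283.4 to 319.6 CPM at 8 h and 373 to 410.7 CPM at 24 h. Most of it was S100b, which oligodendrocytes also express (238 to 277 CPM and 346 to 383 CPM), while Agt and Gjb6 were below 0.1 CPM. Of the 9 tested astrocyte markers 2 rose and 3 fell, beside 25.2% and 25.4% of all tested genes. Sox9 fell most, from 8.5 to 2.15 CPM (−1.99 ± 0.18). Gfap was at 1.88 to 5.2 CPM at 8 h and 3.35 to 7.29 CPM at 24 h. Aqp4 was at 0.601 to 1.72 CPM and 1.15 to 3.45 CPM, and Aldh1l1 at 0.476 to 1.21 CPM and 0.857 to 2.03 CPM. The sum of the 8 Schwann cell markers, 270.3 to 371.1 and 1643 to 2351 CPM, holds Mbp. The part of other cells in the changes above was not tested.

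The genotypes were also compared in their change from 8 h to 24 h. The interaction term called 0 of 14662 genes (0%) with edgeR, where 517 had an unadjusted p below 0.05, and 0 with DESeq2, where 353 did. For Mbp the difference, Nrf2 -/- minus wild type, was −0.06 (95% interval −0.44 to 0.31), for Pdgfra −0.02 (−0.29 to 0.25), for Mki67 −0.18 (−0.66 to 0.30) and for Hmgcs1 0.16 (−0.05 to 0.37), all on the log2 scale. With 2 wild-type and 3 Nrf2 -/- libraries at each hour, any difference inside these intervals remains compatible with the data. The intervals are for single genes and are not adjusted over the genes tested. The Nrf2 -/- 8 h group holds replicate 3, with Nfe2l2 at 7.47 CPM, and without it 0 genes were called too. Nfe2l2 itself was not called, although in wild-type cells it went from 5.02 and 9.97 CPM to 27.7 and 27.6 CPM. Sex was not in this fit. The absence of calls therefore does not show that the genotypes changed alike. Fitted alone, the wild type gave 4946 called genes and Nrf2 -/- 5606.

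The same hours in the presence of IFN-γ gave a comparison with the same interval and no shared library. In a fit of the 20 untreated and IFN-γ libraries of 8 h and 24 h, 5239 of 15405 genes (34%) differed in their change from 8 h to 24 h, 2502 with a more positive change in untreated cells (16.2%) and 2737 with a more negative one (17.8%). Of the cell cycle genes 25 of 26 had a more negative change in untreated cells, where the list's median was −0.60, against 0.84 with IFN-γ. Here and in the next paragraph untreated medians are those of the fit of the 10 untreated libraries, and IFN-γ medians are from the fit of 20. Mki67 averaged 232 CPM at 8 h and 149 CPM at 24 h without treatment; IFN-γ libraries averaged 213 and 379 CPM (difference of the changes −1.41 ± 0.16 SE, adjusted p = 4.65e-06). Sterol synthesis showed the opposite sign, with a more positive change in untreated cells for 24 of 24 genes and medians of 0.19 and −0.96. Hmgcs1 averaged 6186 and 8230.4 CPM untreated, and 5569 and 2402 CPM with IFN-γ (1.64 ± 0.11, adjusted p = 8.22e-10).

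Of the precursor genes 12 of 18 had a more negative change than with IFN-γ and 3 a more positive one, with medians of −1.05 and −0.23. Cspg4 averaged 183 and 43 CPM untreated and 154 and 121 CPM with IFN-γ (−1.77 ± 0.17, adjusted p = 1.41e-06). Of the structural myelin genes 13 of 20 had a more positive change in untreated cells and 3 a more negative one (medians 1.32 and 0.75). Mbp averaged 327 and 1942 CPM untreated and 165 and 406 CPM with IFN-γ (1.29 ± 0.21, adjusted p = 0.000276). The change of Opalin turned sign, 12.2 to 43.6 CPM untreated against 4.7 to 3.52 CPM (2.26 ± 0.15, adjusted p = 4.59e-10). Bmp4 and Neu4, which fell in untreated cells, had log2 folds of 1.88 ± 0.11 and 0.29 ± 0.07 with IFN-γ (differences −2.27 ± 0.15 and −2.20 ± 0.10, adjusted p = 6.49e-09 and 2.49e-12). The genes picked by rule for the largest differences were low. Prr5l, with the most counts among them, was at 0.16 to 0.594 CPM and 2.84 to 4.83 CPM untreated and at 9.3 to 11.7 CPM and 4.81 to 6.48 CPM with IFN-γ (4.04 ± 0.24, adjusted p = 2.1e-10), and Il1r1, the interleukin 1 receptor, at 0.133 to 0.519 CPM and 0 to 0.126 CPM against 1.31 to 1.87 CPM and 1.15 to 1.39 CPM. The other 8, Tdo2, Itih4, Chrng, Cldn10, Epor, Gm29455, Selenov and 4922502N22Rik, reached at most 2.22 CPM in any of these libraries.

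**Figure D3:**
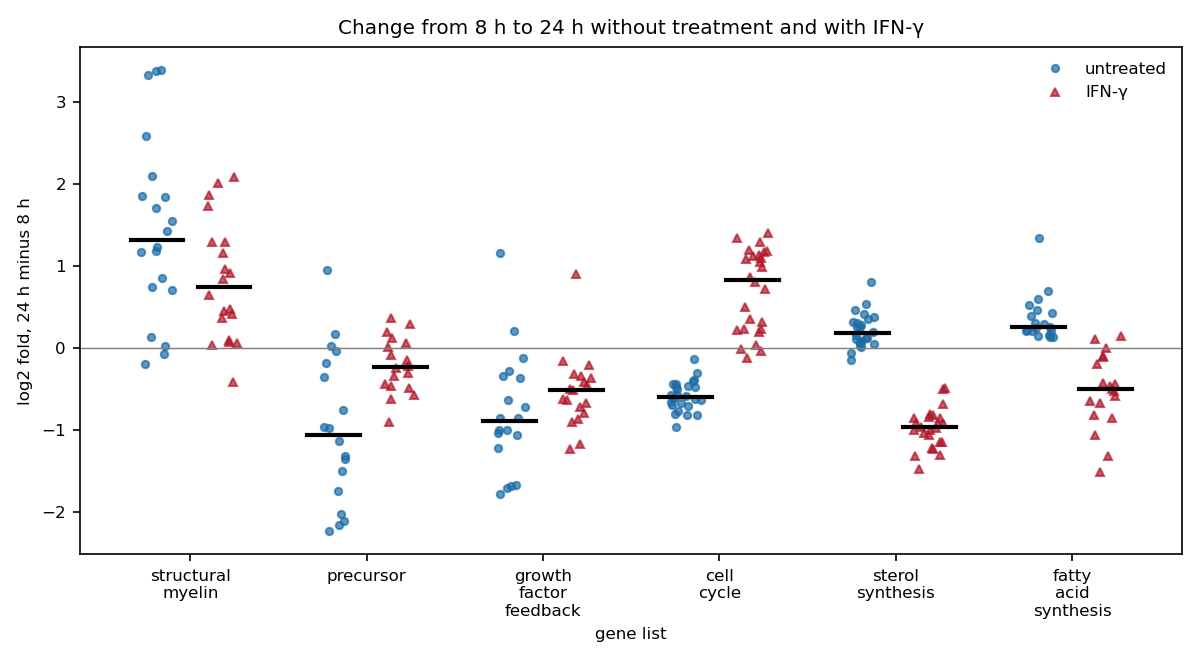
Fitted log2 fold from 8 h to 24 h of each tested member of 6 gene lists, without treatment (circles) and with IFN-γ (triangles). Points are from the fit of the 20 untreated and IFN-γ libraries. Bars are list medians, for IFN-γ from that fit and for untreated cells from the fit of the 10 untreated libraries. The cell cycle medians are −0.60 untreated and 0.84 with IFN-γ, those of sterol synthesis 0.19 and −0.96, those of structural myelin 1.32 and 0.75, and those of precursor genes −1.05 and −0.23.

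The interval from 8 h to 24 h was set against its neighbours, 1 h to 8 h and 24 h to 48 h, in a fit of the 20 untreated libraries. The interval itself lasts 16 h, the one before 7 h and the one after 24 h, folds are per interval, and the comparisons share libraries. From the 8 to 24 h change minus the 1 to 8 h change, 3904 of 15607 genes (25%) passed, and from the 24 to 48 h change minus the 8 to 24 h change 6652 (42.6%). Of the structural myelin genes 14 of 20 had a higher fold than in the interval before and none a lower one, and in the next interval 13 had a lower and 3 a higher fold. Mean Mbp was 160.3, 327, 1942 and 6921 CPM at 1, 8, 24 and 48 h; its fold from 8 h to 24 h exceeded the one before by 1.59 ± 0.14 (adjusted p = 1.26e-07), and the next differed from it by −0.80 ± 0.14 (adjusted p = 8.84e-05). Opalin was at 3.81, 12.2, 43.6 and 11.8 CPM, highest at 24 h, and Mog at 7.4, 21.1, 56.4 and 49.2 CPM. Of the precursor genes 8 of 18 had a more negative fold than from 1 h to 8 h and 11 a more positive one afterwards. Pdgfra was at 1097, 527, 205 and 339 CPM, lowest at 24 h. The 9 tested astrocyte markers had a median log2 fold of −0.23 from 8 h to 24 h and of 2.03 from 24 h to 48 h. Of these markers 6 had a higher fold after 24 h than before it and 1 a lower one. The part of other cells in the 48 h levels, here and below, was not tested.

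Cell cycle genes had a more negative fold than from 1 h to 8 h for 16 of 26, and the medians were −0.09, −0.58 and 0.05 over the 3 intervals. Mcm2 was at 61.9, 52.4, 27.3 and 40.4 CPM. Sterol synthesis rose most before 8 h and turned after 24 h, with medians of 0.74, 0.19 and −1.13; 16 of 24 genes had a lower fold than in the interval before, and 22 a lower one in the interval after. Hmgcs1 was at 3129, 6186, 8230.4 and 3935 CPM, with a difference from the change before of −0.56 ± 0.10 (adjusted p = 0.000364) and of the change after of −1.55 ± 0.10 (adjusted p = 1.19e-10). Growth factor feedback genes, with medians of −0.67, −0.84 and 0.98, had a more positive fold after 24 h for 13 of 19; Etv5 was at 108, 55.2, 16.6 and 36.1 CPM. Enpp6 peaked at 24 h, at 223, 609, 1543 and 1002 CPM, whereas Gpr17 was highest at 8 h, at 1787, 2149, 1452 and 807 CPM.

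**Figure D4:**
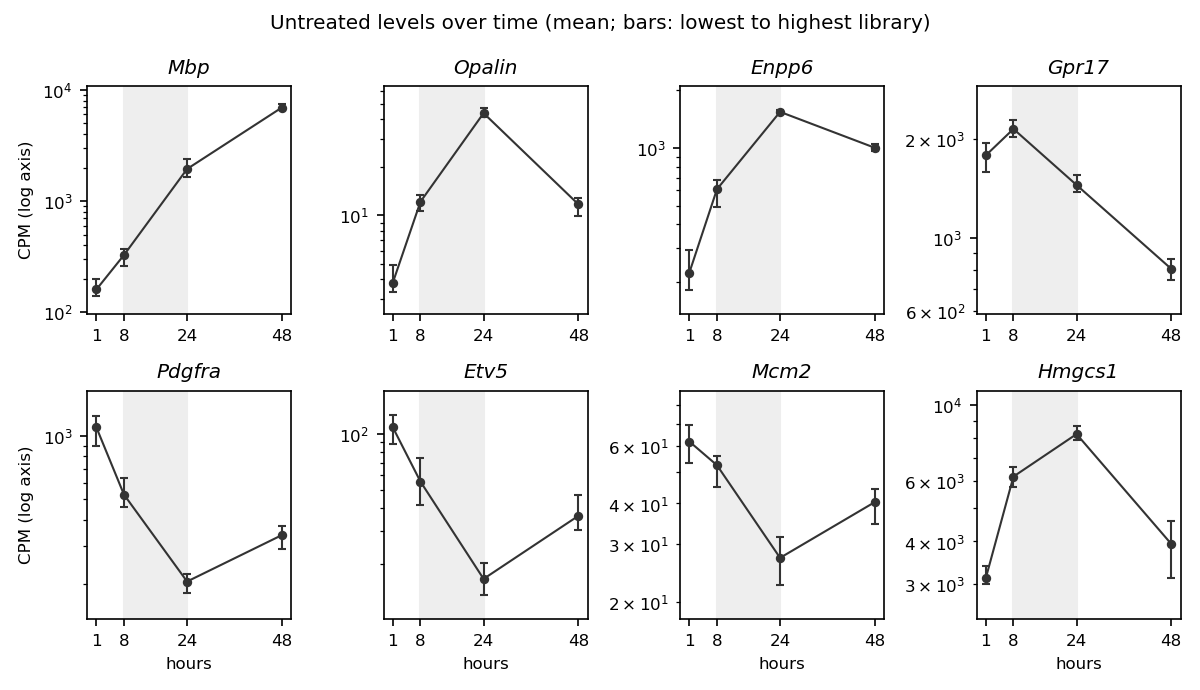
Mean level of 8 genes in untreated cells at 1, 8, 24 and 48 h (log axis, CPM), with bars from the lowest to the highest of the 5 libraries of each hour; the shaded band marks 8 h to 24 h. Mbp rises through all hours, Opalin and Enpp6 are highest at 24 h, Pdgfra and Etv5 are lowest at 24 h, and Gpr17 is highest at 8 h.

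Transcript shares from the kallisto table were examined after the gene results were seen. Among 15626 transcripts of 6595 genes, with at least 500 estimated reads of the gene in every library and a mean share of at least 5% at 1 of the hours, no share passed an exact permutation test of 5 against 5 libraries adjusted over all transcripts (0%); the smallest p this design allows is 0.00794, and the 1159 transcripts without overlap between the hours all had an adjusted p of 0.107. A shift of at least 10 percentage points without overlap was found in 144 transcripts (0.922%) of 101 genes, and in 9 transcripts of 6 listed genes among the 280 listed genes that could be examined. The share of Mag-207, with a coding length of 1881 bases, was 12.2% ± 1.27 (SD, n = 5) at 8 h and 22.3% ± 1.19 at 24 h, and that of Mag-203, of 1746 bases, 65.8% ± 1.96 and 59.6% ± 1.40. Mbp-205, of 585 bases, went from 11.9% ± 1.37 to 4.01% ± 0.73 without overlap. Col9a1-202, a short form of 2040 bases, went from 1.94% ± 1.08 to 24.2% ± 9.36 of the reads of a gene that fell.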

How the data were processed

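RNA of oligodendrocyte-lineage cells was sequenced on an Illumina HiSeq. The submitters' processing notes name STAR, featureCounts, kallisto and edgeR, with roles, versions, genome build, annotation and strand setting not given in the sources used here, so overlapping and antisense genes may share reads. The gene table holds raw counts deposited by the authors, and the isoform table holds the authors' estimated counts per transcript. All 50 columns of each were matched to samples.

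Gene symbols, positions and exon lengths were taken from GENCODE M21 (GRCm38), which matched 38872 of 39056 gene IDs. Genes were filtered with filterByExpr and fitted with edgeR 4.0.16 (TMM, quasi-likelihood, genotype and hour) on the 10 libraries; adjusted p-values are Benjamini-Hochberg over all tested genes. Further fits added IFN-γ libraries or the other hours. DESeq2 1.42.0 and the other alternatives are given in the closing section. Estimated counts were rounded to whole numbers for the alternative that sums them per gene. The fitting code was tested on simulated data. Replicates were compared, and no pair of libraries was identical.

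The libraries, genes and lists were chosen with earlier results of these data known. Genes named were a fixed set, the 8 largest rises and falls of at least 5 CPM without overlap, up to 4 called members of each list with the largest fold and its member of highest CPM, and the 5 largest differences from IFN-γ in each direction. Other genes, all small counts and the transcript shares were named after their values were seen. Some genes that these rules name are not reported here.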

Additional observations from a re-analysis of the deposited data

Results flagged for a closer look

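In 17 of 262 sets of 5 libraries examined (each gene with a printed fold, and the summed interferon-stimulated genes, at each hour), 1 library stood apart: its gap to the nearest library took more than 0.71 of the whole range. Chance gives this in about 1 in 20 sets (5%). At 8 h the library labelled Nrf2 -/- replicate 3, whose Nfe2l2 level goes against its label, was the highest for Myrf (423 CPM against 204 to 243 CPM in the other 4, ratio 0.82), Tcf7l2 (116 CPM against 46.7 to 55.4 CPM in the other 4, ratio 0.875), Sema5a (289.5 CPM against 193 to 219 CPM in the other 4, ratio 0.734) and Grm7 (44.1 CPM against 26.7 to 30.4 CPM in the other 4, ratio 0.79). It was also the highest for Map1b (660.3 CPM against 394 to 406 CPM in the other 4, ratio 0.955), Map1a (377 CPM against 232 to 249 CPM in the other 4, ratio 0.884) and Sema6a (229.9 CPM against 109 to 121 CPM in the other 4, ratio 0.904), and the lowest for the summed interferon-stimulated genes, at 203 CPM against 208 to 209 CPM (ratio 0.725). Nrf2 -/- 8 h replicate 2 was the highest for Dll1 (124 CPM against 109 to 113 CPM in the other 4, ratio 0.726) and Etv4 (9.74 CPM against 7.62 to 7.88 CPM in the other 4, ratio 0.878).

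At 24 h Nrf2 -/- replicate 2 was the highest for Gbp3 (21.1 CPM against 12.9 to 14.7 CPM in the other 4, ratio 0.772) and for the summed interferon-stimulated genes, at 288 CPM against 211 to 228 CPM (ratio 0.78). Nrf2 -/- replicate 3 was the highest for Kcnip1 (1.79 CPM against 0.857 to 0.932 CPM in the other 4, ratio 0.919) and Omg (142 CPM against 125 to 129.6 CPM in the other 4, ratio 0.711). Wild-type replicate 1 was the highest for Cnp (4291 CPM against 3798 to 3924 CPM in the other 4, ratio 0.744), and wild-type replicate 2 the lowest for C1ql1 (2.34 CPM against 4.02 to 4.6 CPM in the other 4, ratio 0.744) and Cntn1 (901 CPM against 942 to 956 CPM in the other 4, ratio 0.746).

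The change from 8 h to 24 h differed between untreated and IFN-γ cells, by edgeR's test of the difference, for the genes described above: by 4.04 for Prr5l, 2.26 for Opalin, 1.64 for Hmgcs1 and 1.29 for Mbp, more positive in untreated cells, and by −2.27 for Bmp4, −2.20 for Neu4, −1.77 for Cspg4 and −1.41 for Mki67, more negative in untreated cells (log2).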

How the results depend on the processing

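Across 25 alternatives the count of genes called lay within 1.5 times the 7430 of the report, except that wild-type libraries alone gave 4946 (2305 of them lower) and a test against a 1.5-fold change gave 1299 (732 higher and 567 lower). With library totals as the only scaling, 1996 genes were higher and 6132 lower. Leaving out 1 of the 10 untreated libraries of 8 h and 24 h at a time gave 6771 to 7695 called genes, 4642 to 5460 differences from IFN-γ, 2606 to 4016 differences from the interval before (the lowest without wild-type 8 h replicate 1) and 5835 to 6716 from the interval after; the IFN-γ, 1 h and 48 h libraries were not left out. The genotype difference stayed at 0 calls in every alternative run. Of 128 called genes whose folds are printed, 46 lost the call in at least 1 alternative, mostly the test against a 1.5-fold change, and 0 reversed.

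No paired analysis was possible because the labels give no replicate numbers that the hours share. Leaving out the interferon-high and the Nfe2l2-positive library together, an alternative chosen after seeing the data as was the scaling by totals, gave 7074 called genes. Depth limits genes under a few counts, such as most of those picked for the largest differences from IFN-γ.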
